A study of Mus musculus with 4 samples.

Results

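The genes described here encode heat shock proteins, chaperonins and co-chaperones of the cytosol and mitochondria, a list of 44 genes taken by symbol from a table of 51826 gene identifiers. All 44 symbols were found in the table, and 43 had enough counts to be tested. RNA sequencing gave their levels in C2C12 cells, an established mouse line of myoblasts, the dividing precursors of muscle fibres. The cells stood in growth medium and received vehicle or recombinant GDF10 for 6 h; GDF10 is a secreted signalling protein related to TGF-beta and the bone morphogenetic proteins. Each group held 2 libraries, described as biological replicates. No genetic change or other agent is given for either group, both of which came from the same cell line, and the dose of GDF10 is not given in the sources used here. Total counts ran from 29641165 to 35597310 per library, so that a count of 3 corresponded to 0.0843 to 0.101 CPM, that is counts scaled to the library's total. Separate cultures are not described, so p-values here reflect only how these libraries differ among themselves, which may be technical.

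The myoblast genes Myod1, Myf5, Des, Itga7, Cdh15 and Vcam1 summed to 2035 to 2106 CPM per library. Summed levels were 6.04 to 7.43 CPM for 5 genes of mature fibres, 4.87 to 6.84 for 4 of leukocytes and blood, 3.97 to 6.71 for 4 of endothelium and epithelium, and 2.46 to 3.65 for 3 of adipocytes. The defining genes Hbb-bs, Epcam and Adipoq had 0 counts in all 4 libraries, while Hba-a1 had 125 to 183 counts, Krt8 117 to 214 and Fabp4 79 to 104. A protocol label names longissimus dorsi as the RNA source while the other labels name the cell line. In bulk RNA, fewer cells of a type and less RNA per cell cannot be told apart.

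Molecular chaperones bind proteins that are not yet folded or have lost their fold. HSP70 proteins work in cycles set by J-domain proteins, which deliver clients and trigger ATP hydrolysis, and by exchange factors. These factors include HSP110 and several BAG proteins. HSP90 takes later clients, many of them kinases and steroid receptors, with help from partner proteins. The chaperonin TRiC, a ring-shaped complex, folds actin and tubulin, and small heat shock proteins hold unfolded proteins and are abundant in muscle. Many of these genes are switched on by the heat shock factor HSF1.

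None of the chaperone genes passed the test of GDF10 against vehicle. Of the 43 tested, 0 rose and 0 fell at an adjusted p of 0.05 (edgeR quasi-likelihood, Benjamini-Hochberg), beside 0.162% of all 15467 genes tested. The lowest adjusted p was 0.572, for Hspa4l. An unadjusted p under 0.05 was reached by 1 gene with a higher level, Hspb8, where the share over all genes was 2.44%, and by 2 with a lower level, Hspa4l and Hsp90aa1, where it was 3.49%, so by 3 in either direction beside 5.94% of all genes. DESeq2 and limma-voom also called 0 of the 43, with 2 genes each at an unadjusted p under 0.05. Log2 fold changes were negative in 20 of the 43 genes, or near the 49.2% of all genes, and their median was 0.017, beside 0.0029 over all genes. In 10 genes both GDF10 libraries lay above both vehicle libraries, and in 10 both lay below. These are 23.3% of the genes in each direction, beside 18.8% and 19.4% of all genes.

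The fold changes lay close together. They ran from −0.31 to 0.22 on the log2 scale, with a median absolute value of 0.057 and a median standard error of 0.078. The corresponding medians over all genes tested were 0.12 and 0.13. The 95% interval of the fold change lay within 1.5-fold in either direction for 42 of the 43 genes and within 1.2-fold for 24. For the 15467 genes those counts were 9419 and 2256. Standard errors are smaller for genes with more counts, and no comparison with genes of similar counts was made. Hspb7, the gene with the fewest counts among those tested, was the 1 outside 1.5-fold.

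**Figure D1:**
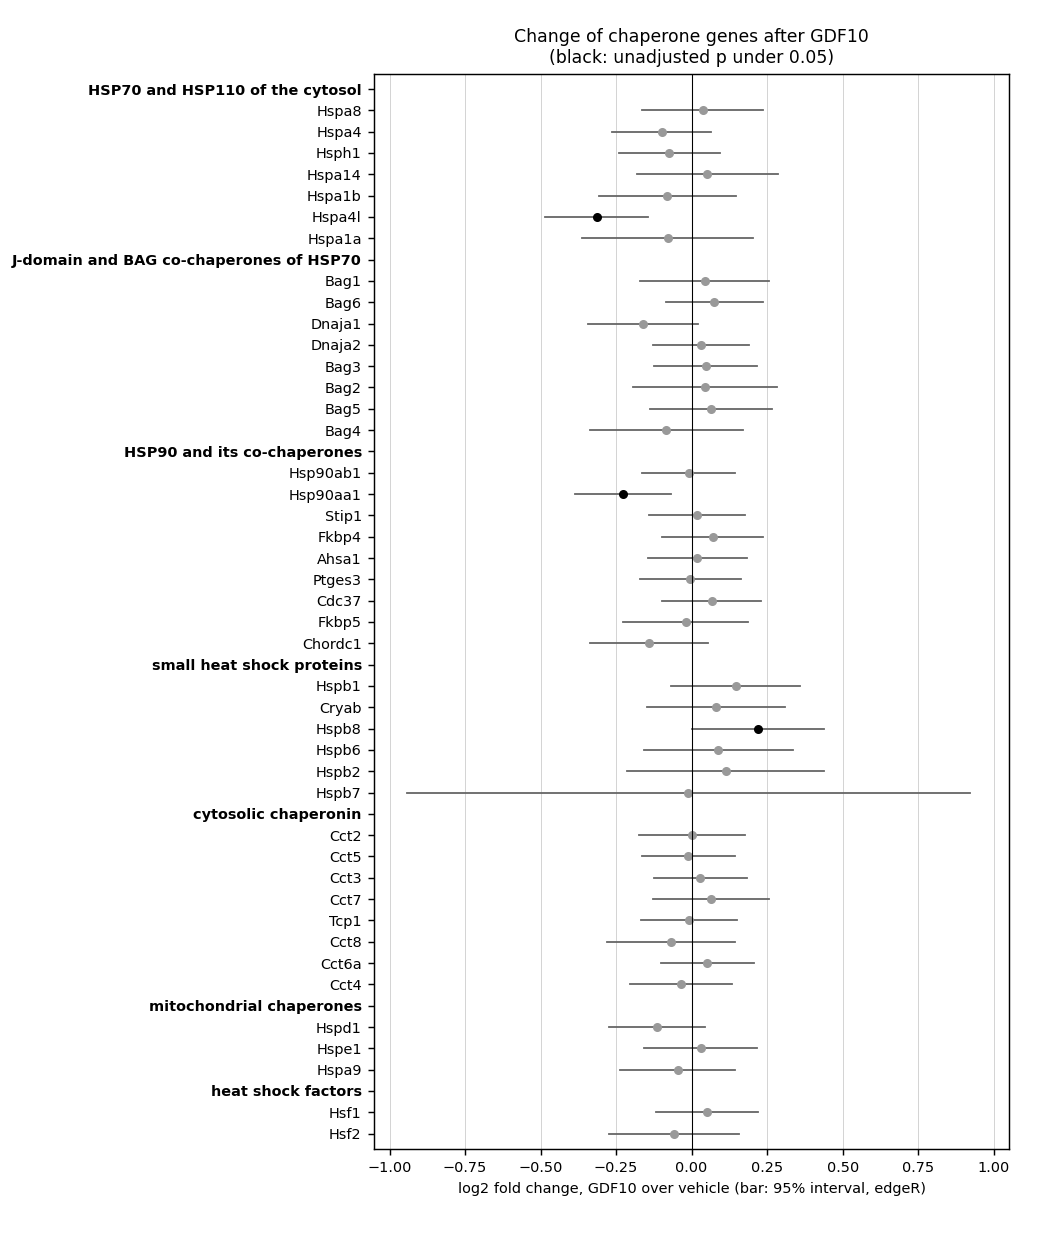
Log2 fold change of GDF10 over vehicle for the 43 chaperone genes tested (x axis), grouped by role and ordered by level within a role, with points for the estimate, bars for the 95% interval from edgeR and black points for an unadjusted p under 0.05. Intervals of 40 genes include 0, and those of Hspa4l, Hsp90aa1 and Hspb8 do not.

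Levels between genes were compared as CPM per kilobase of the principal transcript. On this scale the list spanned from Hsp90ab1, at 1336 ± 6.45 (mean ± SD over the 4 libraries), to Hspb3, which had 2 and 1 counts in vehicle 1 and 2 and 0 counts after GDF10. The constitutive HSP70 gene Hspa8 followed at 621 ± 37.8, then the chaperonin subunit Cct2 at 400 ± 16.1 (rounded to a whole number), the mitochondrial chaperonin Hspd1 at 360 ± 17.9 and Cct5 at 347 ± 4.59. The heat-inducible genes Hspa1b and Hspa1a stood at ranks 35 and 41 of the 44, at 22.3 ± 1.47 and 5.44 ± 0.280. The order depends on the length used, since Ptges3 moved from rank 17 to rank 4 and Cdc37 from 31 to 18 when coding length replaced transcript length.

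**Figure D2:**
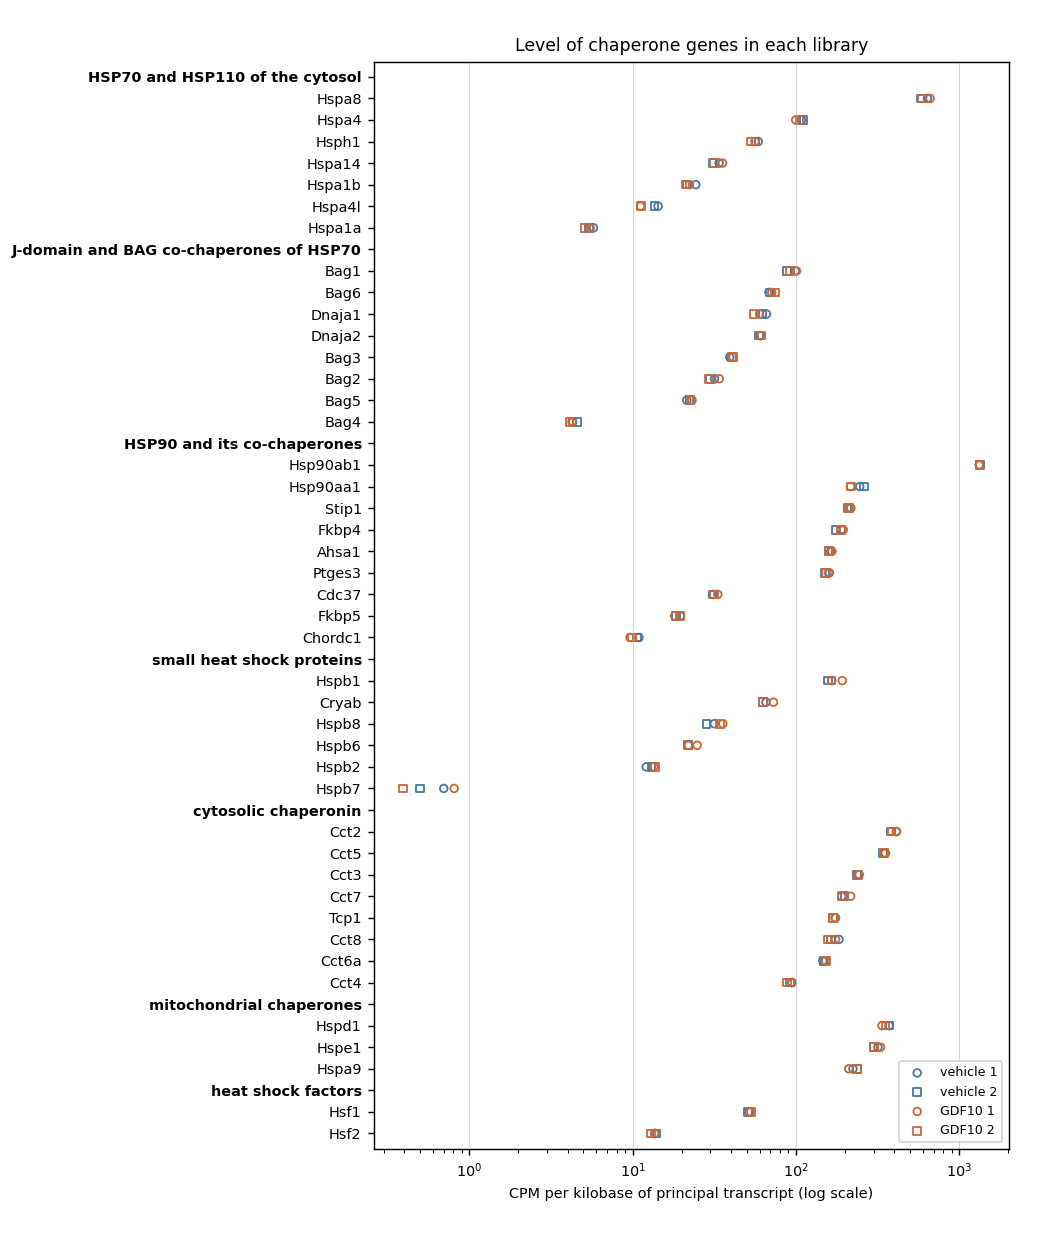
Level of 43 chaperone genes in each library, as CPM per kilobase of principal transcript on a log axis, with circles for replicate 1 and squares for replicate 2, in blue for vehicle and orange for GDF10. Points of a gene lie close together in most rows, while genes differ by orders of magnitude. Hspb3 is left out because 2 of its libraries had 0 counts.

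HSF1 binds repeats of the unit GAA in alternating orientation, called heat shock elements. Promoters were available from RefSeq (build GRCm38.p6, whose main chromosomes are those of mm10) for 35 of the 44 genes, and the 250 bases before each annotated start were searched. Hsp90aa1, Hsp90ab1, Hspa8, Hspa9, Hspb2, Cryab, Cct4, Bag4 and Hsf1 are not among the 35. A run of 2 units, spelled GAANNTTC or TTCNNGAA, each its own reverse complement, stood before 13 of the 35 genes, or 37.1%, against 14.5% of all 27025 genes with a promoter entry. A run of 3 units, which is a run of 2 followed by a further NN and the opposite unit, read on either strand, stood before 2 of the 35 genes, Hspd1 and Hspe1, and 0.514% of all genes. Each run of 3 holds runs of 2. Such elements are the sequences HSF1 is known to bind. Matches before Cct2, Cct5, Cdc37, Dnaja1, Hspb3, Hspb6 and Hsph1 are not shown, and no rule set which genes were picked. Stretches of 30 bases around a match are shown for 6 of the 13 genes, with the matched bases in capitals, read 5′ to 3′ on the gene's strand.
Hspd1 (chr1:55088053-55088082, minus strand): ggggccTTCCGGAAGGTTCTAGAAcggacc
Hspe1 (chr1:55088053-55088082, plus strand): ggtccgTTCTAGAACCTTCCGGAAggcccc
Hspa1a (chr17:34972242-34972271, minus strand): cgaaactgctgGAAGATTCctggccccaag
Hspa1b (chr17:34959324-34959353, minus strand): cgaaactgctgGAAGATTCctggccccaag
Hspb1 (chr5:135887811-135887840, plus strand): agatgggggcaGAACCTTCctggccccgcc
Fkbp4 (chr6:128438789-128438818, minus strand): ccgcttctctaGAAAGTTCtccgctcccgc
The stretch of Hspd1 and Hspe1 is the same genomic sequence read on opposite strands, since these genes are transcribed away from each other. The stretches of Hspa1a and Hspa1b hold the same letters, and their 250 bases differed at 3 positions. The capitals of Hspd1 and Hspe1 cover 2 overlapping runs of 3 and lie 144 to 127 bases before the start of Hspd1 and 89 to 72 before that of Hspe1, inside the span that GENCODE gives Hspd1. The match lies 104 to 97 bases before the start in Hspa1a and Hspa1b and 151 to 144 in Fkbp4, and the 1 shown of 2 in Hspb1 lies 97 to 90 bases before it. A match is a description of the sequence and not a site shown to be bound. Only these exact spellings within 250 bases were searched, so a gene without a match is not shown to lack an element.

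Fold changes of genes with and without a match covered overlapping ranges. The 2 genes with the longer run had log2 fold changes of −0.11 and 0.030. The 10 tested genes with the shorter run had a median of −0.0041, from −0.16 to 0.15, and the 22 without it a median of 0.024, from −0.31 to 0.22. These values describe the 34 tested genes with a promoter entry, and no test was made between the classes.

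Among HSP70 and HSP110 genes of the cytosol, 0 of 7 passed the test, 5 had negative log2 fold changes, and the median was −0.079. Hspa4l, an HSP110-type exchange factor (ENSMUSG00000025757; mm10 chromosome 3, 40744495 to 40796103, 21 exonic blocks), stood at 136 and 129 CPM with vehicle and 106 and 107 with GDF10. Both GDF10 libraries lay below both vehicle libraries. The log2 fold change was −0.31 with a standard error of 0.073 and a 95% interval of −0.49 to −0.14 (edgeR quasi-likelihood, adjusted p = 0.572). Its exons span 11792 bases, the longest of the list. Across all genes tested, which are not independent replicates, the deviation of GDF10 replicate 1 from the mean of the 4 libraries was related to exon length with a Spearman coefficient of −0.33, against 0.11, 0.20 and 0.080 in vehicle 1, vehicle 2 and GDF10 2. With that trend removed, the log2 fold change of Hspa4l was −0.21, and with GDF10 replicate 1 left out instead it was −0.31. A part played by exon length was not tested.

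Its relatives Hspa4 and Hsph1, the other HSP110 genes, had smaller differences of the same sign. Hspa4 stood at 501 and 516 CPM with vehicle and 461 and 487 with GDF10, a log2 fold change of −0.10 with an interval of −0.26 to 0.063. Hsph1, which is strongly heat-inducible, stood at 224 and 215 CPM with vehicle and 214 and 203 with GDF10, and its log2 fold change of −0.074 had an interval of −0.24 to 0.094. In both genes the GDF10 libraries lay below the vehicle libraries, as they did in 19.4% of all genes, and neither reached an unadjusted p under 0.05. Hspa14, a ribosome-associated HSP70-like protein, stood at 60.9 and 55.4 CPM with vehicle and 63.8 and 56.8 with GDF10, with overlapping groups and a log2 fold change of 0.052. It shares 321 exonic bases with Gm45902 on the same strand, so its counts are uncertain.

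The heat-inducible pair Hspa1a and Hspa1b did not pass the test either. Hspa1b stood at 68.4 and 60.2 CPM with vehicle and 62.6 and 59.2 with GDF10, and Hspa1a at 17.1, 16.0, 16.3 and 15.1 CPM in the same order. The groups overlapped in both genes. Their transcripts align at 99.2% identity over 2201 bases, so that the split of reads between them depends on the counting, and the ratio of Hspa1b to Hspa1a in CPM per kilobase was 3.97 to 4.23 in the 4 libraries. Their summed counts were 3054, 2258, 2364 and 2588 in that order, a log2 fold change of −0.080 with an interval of −0.29 to 0.13 (adjusted p = 0.888 in edgeR).

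Hspa8, the constitutive cytosolic HSP70 (chromosome 9, 40800984 to 40810087), stood at 1534 and 1403 CPM with vehicle and 1591 and 1421 with GDF10. Replicate 1 was the higher library in each group, and the groups overlapped. The log2 fold change was 0.037 with an interval of −0.16 to 0.24. A large share of reads of this sequence was listed under other identifiers. The processed pseudogene Gm15459, whose transcript is 99.7% identical to that of Hspa8 over 1941 bases, had 1194, 1101, 1042 and 1126 CPM in vehicle 1, vehicle 2, GDF10 1 and GDF10 2. The noncoding Gm26825, at 99.6% identity over 1940 bases, had 267, 269, 335 and 241 CPM. Counts of the 11 annotated pseudogenes that align to Hspa8 and had counts, a set that includes Gm15459 and leaves out Gm26825, came to 82.1% of those of Hspa8 itself over the 4 libraries. With them added, Hspa8 had 2831, 2603, 2742 and 2643 CPM and a log2 fold change of −0.013 (interval −0.19 to 0.16), so that its sign depends on where these reads are counted. The same sum over pseudogenes was 10.3% of the counts of Hspb1, 6.89% for Dnaja1, 6.41% for Hsp90aa1 and 0.966% for Hspd1. The level of Hspa8 above is thus that of reads assigned to the gene and not of all reads of its sequence.

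**Figure D3:**
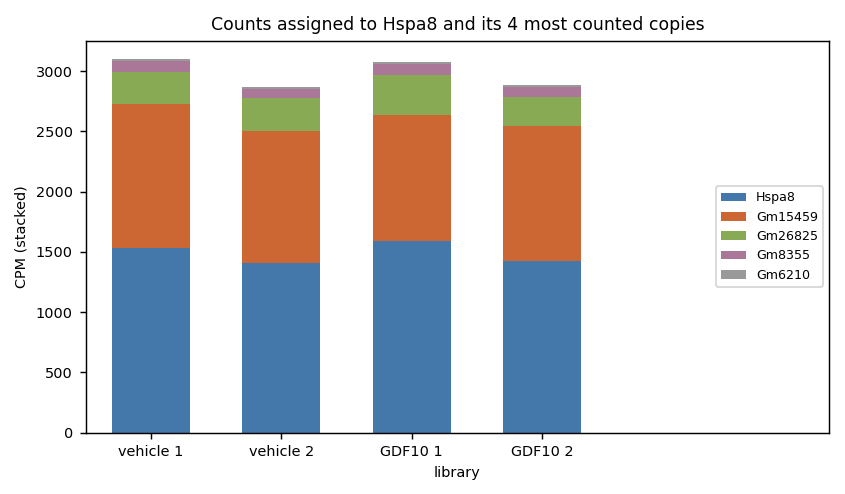
CPM assigned to Hspa8 and to its 4 most counted near-identical copies, stacked, in each of the 4 libraries. Gm15459 takes 1042 to 1194 CPM beside 1403 to 1591 for Hspa8, and the stacked height is greater in replicate 1 of each group.

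Of the J-domain and BAG co-chaperones of HSP70, 0 of 8 passed the test, and 6 had positive log2 fold changes with a median over the 8 of 0.043. Dnaja1, a J-domain protein that carries clients to HSP70, stood at 223 and 211 CPM with vehicle and 203 and 186 with GDF10. Both GDF10 libraries were lower, with a log2 fold change of −0.16 and an interval of −0.34 to 0.022. With the exon length trend removed it was −0.090. It shares 608 exonic bases with Smu1 on the opposite strand, so its counts may include reads of that gene. Its relative Dnaja2 stood at 176 and 174 CPM with vehicle and 179 and 180 with GDF10, a log2 fold change of 0.032. The 2 genes thus differed in sign, and a difference between them was not tested.

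Several BAG proteins release clients from HSP70 by speeding nucleotide exchange, and BAG3 serves the autophagy of damaged muscle proteins. Bag3 stood at 101 and 104 CPM with vehicle and 106 in each GDF10 library, a log2 fold change of 0.047 with an interval of −0.12 to 0.22. Bag6, which guards membrane proteins before insertion, stood at 265 and 269 CPM with vehicle and 275 and 287 with GDF10 (log2 fold change 0.075). The groups did not overlap for Bag3, Bag5 and Bag6, which were higher with GDF10, or for Bag4, which was lower. Such groups were found in 18.8% of all genes tested in the higher direction and 19.4% in the lower. Bag5 stood at 46.0 and 47.8 CPM with vehicle and 49.4 and 48.5 with GDF10, and Bag4 at 21.0 and 22.3 against 20.8 and 20.1. Bag1 and Bag2 were highest in GDF10 replicate 1, with log2 fold changes of 0.043 and 0.044, beside −0.083 for Bag4 and 0.064 for Bag5. In CPM per kilobase Bag1 was the highest of the family at 95.2 ± 5.99 and Bag4 the lowest at 4.31 ± 0.189.

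Among HSP90 and its partners, 0 of 9 passed the test, and the median log2 fold change was −0.0039. Hsp90aa1, the inducible cytosolic HSP90 (ENSMUSG00000021270; chromosome 12, 110690605 to 110702728), stood at 809 and 857 CPM with vehicle and 710 and 713 with GDF10. Both GDF10 libraries were lower than both vehicle libraries, with a log2 fold change of −0.23, a standard error of 0.068 and an interval of −0.39 to −0.067 (edgeR quasi-likelihood, adjusted p = 0.801). With the length trend removed the log2 fold change was −0.23, and with its pseudogenes added it was also −0.23. The constitutive Hsp90ab1 stood at 3367, 3387, 3348 and 3362 CPM in the same order of libraries. Its log2 fold change was −0.0096 with an interval of −0.16 to 0.14. The ratio of Hsp90ab1 to Hsp90aa1 in CPM per kilobase was 5.42 and 5.15 with vehicle and 6.14 in each GDF10 library.

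The 7 HSP90 partners had log2 fold changes from −0.14 to 0.070. Stip1, which passes clients from HSP70 to HSP90, stood at 455 and 438 CPM with vehicle and 458 and 445 with GDF10 (log2 fold change 0.017). Cdc37, the adaptor for kinases, stood at 244 and 243 CPM with vehicle and 261 and 248 with GDF10, so that the groups did not overlap (log2 fold change 0.066). Ahsa1, which stimulates the HSP90 ATPase, Ptges3, the p23 protein that stabilises the closed form, and Fkbp4, an immunophilin of steroid receptors, had log2 fold changes of 0.019, −0.0039 and 0.070. Fkbp4 stood at 421 and 392 CPM with vehicle and 433 and 421 with GDF10, so that vehicle replicate 2 was its low library. Fkbp5, the related immunophilin induced by glucocorticoids, had one of −0.020, and the level of Fkbp4 was 9.56 to 10.8 times that of Fkbp5 in CPM per kilobase in the 4 libraries. Chordc1, a stress-induced HSP90 partner, stood at 63.4 and 61.7 CPM with vehicle and 55.9 and 57.5 with GDF10. Its groups did not overlap, and its log2 fold change was −0.14 with an interval of −0.34 to 0.053.

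Of the small heat shock protein genes, 6 of 7 were tested, 0 passed, and 5 had positive log2 fold changes with a median of 0.10 over the 6. Hspb8, which works with BAG3 (ENSMUSG00000041548; chromosome 5, 116408491 to 116422864), stood at 57.6 and 51.6 CPM with vehicle and 64.9 and 62.3 with GDF10. Both GDF10 libraries were higher, with a log2 fold change of 0.22, a standard error of 0.093 and an interval of 0.0024 to 0.44 (edgeR quasi-likelihood, adjusted p = 0.825). Hspb1, which caps actin filaments, stood at 150 and 142 CPM with vehicle and 174 and 150 with GDF10, where GDF10 replicate 1 was the high library. Its log2 fold change was 0.15 with an interval of −0.067 to 0.36. The pseudogene Hsp25-ps1, near-identical to Hspb1, had 439, 409, 583 and 630 counts in vehicle 1, vehicle 2, GDF10 1 and GDF10 2. Gm9817, annotated as coding and 99.8% identical to Hspb1 over 493 bases, had 164, 79, 53 and 0 counts, so the 2 copies differed between groups in opposite directions. Counts of Gm9817 also differed between replicates within each group, and no test of either copy is given. With Hsp25-ps1 added, the log2 fold change of Hspb1 was 0.18 with an interval of −0.025 to 0.39. Cryab, which protects desmin, stood at 73.3, 70.4, 81.6 and 70.5 CPM in the same order, with GDF10 replicate 1 again highest (log2 fold change 0.081).

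Hspb2 is transcribed from the opposite strand next to Cryab and shares 252 exonic bases with it, 30.2% of its own exons. The use of strand in the counting is not given in the sources used here, so the values of both genes are uncertain. Hspb2 stood at 9.38 and 10.1 CPM with vehicle and 10.4 and 10.6 with GDF10 (log2 fold change 0.11). Hspb6, which is abundant in muscle, stood at 33.9 CPM in GDF10 replicate 1 and lower in the other libraries, down to 29.7 in GDF10 replicate 2 (log2 fold change 0.088). Hspb7, the small heat shock protein of heart and skeletal muscle, was counted 69, 41, 67 and 38 times in vehicle 1, vehicle 2, GDF10 1 and GDF10 2. Its interval, −0.94 to 0.92, was the widest, and replicate 1 had the higher count in each group.

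The 8 subunit genes of the cytosolic chaperonin had fold changes in a narrow range. Their log2 fold changes ran from −0.068 for Cct8 to 0.064 for Cct7, and 0 of 8 passed. All 8 intervals lay within 1.5-fold in either direction, and 7 within 1.2-fold, the exception being Cct8. Cct3 stood at 476 and 468 CPM with vehicle and 484 and 479 with GDF10, and Cct6a at 359 and 363 against 373 and 375. These 2 genes had groups that did not overlap, both higher with GDF10, as did 18.8% of all genes. Their log2 fold changes were 0.029 and 0.051. Cct8 stood at 440 and 393 CPM with vehicle and 420 and 375 with GDF10, replicate 1 being the higher in each group. Cct7 stood at 467 and 486 against 529 and 467, where GDF10 replicate 1 was the high library. Cct2, at 810 and 754 against 810 and 757, had the smallest difference between groups of the 8. Tcp1, Cct2, Cct4 and Cct5 had log2 fold changes of −0.0084, 0.0022, −0.036 and −0.010. Summed, the 8 genes reached 3872 and 3744 CPM with vehicle and 3915 and 3728 with GDF10. Tcp1 shares 571 exonic bases with Acat3 and 141 with Mrpl18 on the opposite strand, Cct6a 452 with Psph, Cct7 214 with Pradc1 and Cct8 192 with Usp16, so reads of these genes may have been counted for their neighbours.

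Each subunit is present once per ring in the complex, but the transcripts were not at one level. In CPM per kilobase of the principal transcript, Cct2 was the highest and Cct4 the lowest subunit in each of the 4 libraries. The ratio between these genes was 4.36 and 4.16 with vehicle and 4.38 and 4.37 with GDF10. The coefficient of variation over the subunits was 46.1% to 47.7%. The length set for Cct6a is that of its longest transcript, since the annotation gives it no coding one.

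**Figure D4:**
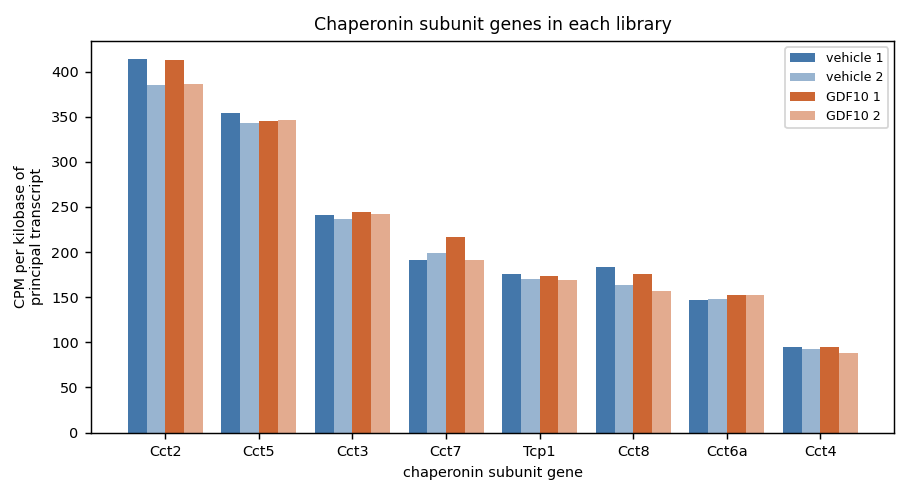
Level of the 8 chaperonin subunit genes in CPM per kilobase of principal transcript (y axis, from 0), with 1 bar per library, blue for vehicle and orange for GDF10, paler for replicate 2. The order from Cct2 at the left to Cct4 at the right spans about the same range in every library, 4.16 to 4.38 times.

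The 3 mitochondrial chaperone genes did not pass the test. Hspd1, the mitochondrial chaperonin HSP60, stood at 904 and 910 CPM with vehicle and 817 and 858 with GDF10. Both GDF10 libraries were lower, with a log2 fold change of −0.11 and an interval of −0.27 to 0.043. Hspe1, its cofactor HSP10, stood at 247 and 232 CPM with vehicle and 256 and 233 with GDF10, and its groups overlapped (log2 fold change 0.030). The partners share the promoter shown above and overlap by 112 exonic bases on opposite strands. Their ratio in CPM per kilobase, Hspd1 to Hspe1, was 1.17 and 1.25 with vehicle and 1.02 and 1.18 with GDF10. Hspa9, the mitochondrial HSP70, stood at 683, 726, 644 and 720 CPM, with replicate 2 the higher in each group and a log2 fold change of −0.046.

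Neither gene for a heat shock factor passed the test. Hsf1, the main activator of the heat shock response, stood at 108 and 106 CPM with vehicle and 110 and 111 with GDF10, a log2 fold change of 0.052 with an interval of −0.12 to 0.22. Hsf2, a factor of development that pairs with HSF1, stood at 35.6 and 36.5 CPM with vehicle and 35.6 and 33.7 with GDF10, a log2 fold change of −0.057 with an interval of −0.27 to 0.16. HSF1 is controlled mostly at the protein level, which these data do not measure.

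More of the listed genes were high in replicate 1 of each group than in replicate 2. Of the 43 tested genes, 27 in vehicle 1 and 31 in GDF10 1 lay above their own mean over the 4 libraries, against 11 in vehicle 2 and 12 in GDF10 2. The median deviations were 0.027, −0.025, 0.022 and −0.036 on the log2 scale in vehicle 1, vehicle 2, GDF10 1 and GDF10 2, beside 0.00049 to 0.0094 over all genes. The libraries of higher chaperone level were thus 1 of each group. With vehicle replicate 1 left out, 30 of the 43 log2 fold changes were positive, and with GDF10 replicate 1 left out, 14 were.

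A wider set of 107 chaperone and stress genes was described beside the list, of which 101 were tested. Among these, 1 gene fell and 0 rose, beside the 0.162% of all genes called. An unadjusted p under 0.05 was reached by 4 with a higher and 3 with a lower level, beside 2.44% and 3.49% of all genes. The median log2 fold change was 0.0092. The gene that fell, Dnajb4, encodes a class B J-domain protein (chromosome 3, 152178511 to 152210302). It stood at 54.9 and 55.5 CPM with vehicle and 26.7 and 24.6 with GDF10, a log2 fold change of −1.11 with an interval of −1.32 to −0.89 (adjusted p = 0.0107 in edgeR). With the exon length trend removed its log2 fold change was −1.03 and its adjusted p (limma) 0.0505, just above the threshold, and over all alternatives its adjusted p ran from 7.64e-17 to 0.0505. Dnajb1, the heat-inducible member of the same class, stood at 69.9 and 69.0 CPM with vehicle and 74.7 and 68.6 with GDF10 (log2 fold change 0.044). Dnajb4 was the 1 of 9 tested class B genes that passed.

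In the other lists of that set 0 genes passed. Hsp90b1, the HSP90 of the endoplasmic reticulum, stood at 1151 and 1154 CPM with vehicle and 1030 and 1038 with GDF10, and its log2 fold change was −0.16 (edgeR, unadjusted p = 0.0457, adjusted p = 0.825). Its mitochondrial relative Trap1 had one of 0.063. Stub1, a ubiquitin ligase bound to HSP70 and HSP90, had a log2 fold change of 0.19, and the co-chaperone Sgta one of 0.23. Dnajb2, of class B like Dnajb4, had one of 0.28, and Dnajc24, of diphthamide synthesis, one of 0.57. Stub1, Sgta, Dnajb2 and Dnajc24 each had an unadjusted p under 0.05, and adjusted values of 0.801 to 0.825 in edgeR. Of 11 tested genes of prefoldin and chaperonin partners, 8 of HSF1 targets outside the list and 4 of mitochondrial proteases and chaperones, 0 reached an unadjusted p under 0.05. The HSF1 targets had a median log2 fold change of 0.037.

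The number of listed genes at an unadjusted p under 0.05, 3 with all libraries, was 6 without GDF10 replicate 2, where 15.1% of all genes reached it, and 3 without GDF10 replicate 1, where 5.62% did. With vehicle replicates 1 and 2 left out it was 0 and 1, beside 4.99% and 3.46% of all genes.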

How the data were processed

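The authors deposited 1 table of raw whole-number counts for 4 libraries, with Ensembl genes in rows. The build mm10 and the tools HISAT2 2.0, StringTie 1.3.3b, Trimmomatic 0.36, DESeq2 1.12.4, FastQC 0.11.2 and bedtools 2.26.0 are listed, per the submitters' processing notes, which give no roles. How reads were assigned to genes, with which annotation and whether by strand, is not given in the sources used here. Symbols, positions and lengths came from GENCODE M21, which held 51633 of the 51826 identifiers.

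The test was that of edgeR 4.0.16 in R 4.3.3 (filterByExpr, TMM, robust glmQLFit and glmQLFTest, no covariates) over 15467 genes, with Benjamini-Hochberg adjustment over all of them and a threshold of 0.05. The coefficient of variation from the common dispersion was 14.3%. Every pair of libraries differed beyond sampling noise (chi-square 14.9 to 29.2 per degree of freedom). Floors in CPM cover counting error only. Levels per kilobase used the APPRIS principal transcript with the best support, or the longest transcript where none was marked. Near-identical copies were found with blastn (identity of at least 90% over at least 200 bases). Alternatives used DESeq2 1.42.0 and limma 3.58.1, other scalings and filters, each library left out in turn, a block for the replicate number, and log2 CPM (prior count 2) with each library's loess trend with exon length removed (span 0.3). Adding pseudogene counts was chosen after seeing the data. All 44 genes are named. From the wider lists the rule named called genes, Dnajb1, Dnajb4 and up to 2 genes of lowest p per list, of which some are given and 1 is not reported here. Genes overlapping a listed gene's exons could be named too, whereas near-identical copies were picked once their values were known. The members and lists were chosen with earlier results of these data known.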

Additional observations from a re-analysis of the deposited data

How the results depend on the processing

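In 14 alternatives, 0 of the listed genes passed the adjusted threshold. Over all genes, 25 calls became 65 with DESeq2, 9 when edgeR's robust estimation was off and 11 with limma-voom, and 27 to 224 when each library was left out in turn (224 without GDF10 replicate 2, 112 without GDF10 replicate 1, and 44 and 27 with vehicle replicates 2 and 1 left out). In the wider set, 1 call became 0 with the exon length trend removed, where Dnajb4 had a log2 fold change of −1.03 and an adjusted p of 0.0505 in limma, and 1 to 2 with libraries left out, 2 being the count without GDF10 replicate 2. The cause was not tested. An unadjusted p under 0.05 was found in 13 of 14 alternatives for Hspa4l, 12 for Hsp90aa1 and 6 for Hspb8.

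The labels give both groups the same replicate numbers and no shared source. The difference of replicate 1 minus replicate 2 in vehicle correlated with the same difference in GDF10 at 0.070 over 15467 genes. With the replicate number as a block, 23 genes were called over all, 0 of the listed genes passed, and 4 of these had an unadjusted p under 0.05, with Dnaja1 added.

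Signs of small log2 fold changes depended on settings. With pseudogene counts added, Hspa8 was −0.013. With the exon length trend removed, values were −0.0075 for Hspe1, 0.022 for Hsf2, −0.0021 for Stip1, 0.059 for Fkbp5, 0.0045 for Tcp1 and −0.011 for Cct2. Cct2 was −0.0028 with scaling by total counts and −0.00065 with the CPM filter. With each library left out, 21 results had a change of sign, and their log2 fold changes ran from −0.048 to 0.12 for Hspa8, −0.17 to 0.015 for Hspa1b, −0.16 to 0.0050 for Hspa1a and Hspa1b summed, −0.13 to 0.033 for Hspa9 and −0.034 to 0.13 for Hspa14. They ran from −0.0086 to 0.18 for Hspb6, −0.61 to 0.43 for Hspb7, −0.028 to 0.18 for Cryab, −0.039 to 0.097 for Hspe1, −0.040 to 0.13 for Bag1 and −0.062 to 0.14 for Bag2. For HSP90 partners they ran from −0.0097 to 0.044 for Stip1, −0.011 to 0.049 for Ahsa1, −0.045 to 0.038 for Ptges3 and −0.073 to 0.032 for Fkbp5. For chaperonin genes they ran from −0.031 to 0.015 for Tcp1, −0.049 to 0.055 for Cct2, −0.084 to 0.012 for Cct4, −0.032 to 0.012 for Cct5, −0.029 to 0.15 for Cct7 and −0.15 to 0.017 for Cct8. A group left with 1 library was assumed to vary like the other group.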
